A study of Mus musculus with 18 samples.

Results

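The transcripts described here are those of fatty acid oxidation and of the factors that control it, taken from a list of 38 mouse genes. A member is a listed gene with at least 1 probe set paired with its symbol alone, and 37 of the 38 were found among the 12393 genes measured. No probe set was paired here with the symbol of Acsl1, the long-chain acyl-CoA synthetase. Where a gene had several probe sets (17 members), the one with the highest mean log2 intensity over all arrays stood for it, and the other 20 members had 1 each. By role there were 4 regulators, 18 mitochondrial and carnitine shuttle enzymes, 9 peroxisomal enzymes, and 6 genes of activation, thioesterases or known target genes.

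The arrays hybridised total RNA of whole kidneys from C57BL/6 mice, taken 3 days after surgery that was either unilateral ureteral obstruction (UUO) or sham. In UUO a ureter is tied off, here the right one, and the kidney behind it is studied. The 6 groups were TIMP3-/- UUO, TIMP2-/- UUO, WT UUO, TIMP3-/- sham, TIMP2-/- sham and WT sham, with 3 arrays each that the labels call biological replicates. TIMP2 and TIMP3 are tissue inhibitors of metalloproteinases. The labels give each knockout only as -/-, and they give no age or sex. A whole kidney mixes many cell types, so a lower value in these bulk samples cannot tell fewer cells of a type from less RNA per cell.

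Long-chain fatty acids enter mitochondria as carnitine esters and are then shortened in cycles of dehydrogenation, hydration, dehydrogenation and thiolysis. Peroxisomes carry out a parallel pathway for very long, branched and dicarboxylic acids. PPARα, a nuclear receptor that binds fatty acids, pairs with RXRα to induce genes of both pathways, while PGC-1α and ERRα drive mitochondrial genes. The proximal tubule of the kidney lives largely on fatty acid oxidation, and low expression of this pathway is a known feature of obstructed and fibrotic kidneys.

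The values are intensities on a linear scale, with array medians of 201.2 to 247.4 and 25th percentiles of 56.8 to 64.2. Timp3 lay between 35.14 and 60.81 on the TIMP3-/- arrays, against 3171 to 9040 on all others. Timp2 lay between 570.8 and 897.1 on the TIMP2-/- arrays, against 970.6 to 5304 on all others. The first principal component of all genes held 67.2% of the variance. On the second, which held 15.5%, WT sham 3 (-60) and TIMP3-/- UUO 2 (-40.7) lay at one end, and TIMP2-/- sham 3 (33.3) and TIMP2-/- UUO 3 (32.8) at the other. The summed intensity of 20 hepatocyte markers was 158412 on WT UUO 2 and at most 48923 on any other array. The 3 arrays said to stand apart are TIMP3-/- UUO 2, WT UUO 2 and WT sham 3, and results that rest on them are also given without them. That check drops no TIMP2-/- array, although TIMP2-/- sham 3 and TIMP2-/- UUO 3 lay at the other end of the second component.

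Transcripts of fatty acid oxidation were lower in obstructed kidneys of every genotype. Of the 37 members, 30 fell in TIMP3-/- UUO against TIMP3-/- sham, where 38.8% of all genes fell. In TIMP2-/- kidneys 20 members fell (22.0% of all genes), and in WT kidneys 31 fell (16.2% of all genes), by limma with an adjusted p under 0.05. The median log2 difference of the members was -1.13 in TIMP3-/-, -0.53 in TIMP2-/- and -0.79 in WT, beside -0.19, -0.12 and -0.09 for all genes tested. Pdk4 was the only member that rose, in TIMP3-/- (25.7% of all genes rose) and in TIMP2-/- (15.9%), and no member rose in WT (16.8%).

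In all, 19 members fell in all 3 genotypes, which was 51.4% of the members and compares with 11% of all genes. On 20 members (54.1%, against 9.65% of all genes) each of the 9 UUO arrays lay below each of the 9 sham arrays. These 20 comprised 12 mitochondrial enzymes, the peroxisomal enzymes Acox2, Ehhadh, Eci2 and Scp2, the regulators Ppara and Esrra, and Acot12 and Pex11a. The lowest group mean belonged to TIMP3-/- UUO for 29 members, to WT UUO for 5, to TIMP2-/- sham for 2 and to TIMP2-/- UUO for 1. Without WT UUO 2 the count of falls in WT was 20 (8.68% of all genes), and without all 3 arrays that stood apart it was 22 (8.21%).

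**Figure D1:**
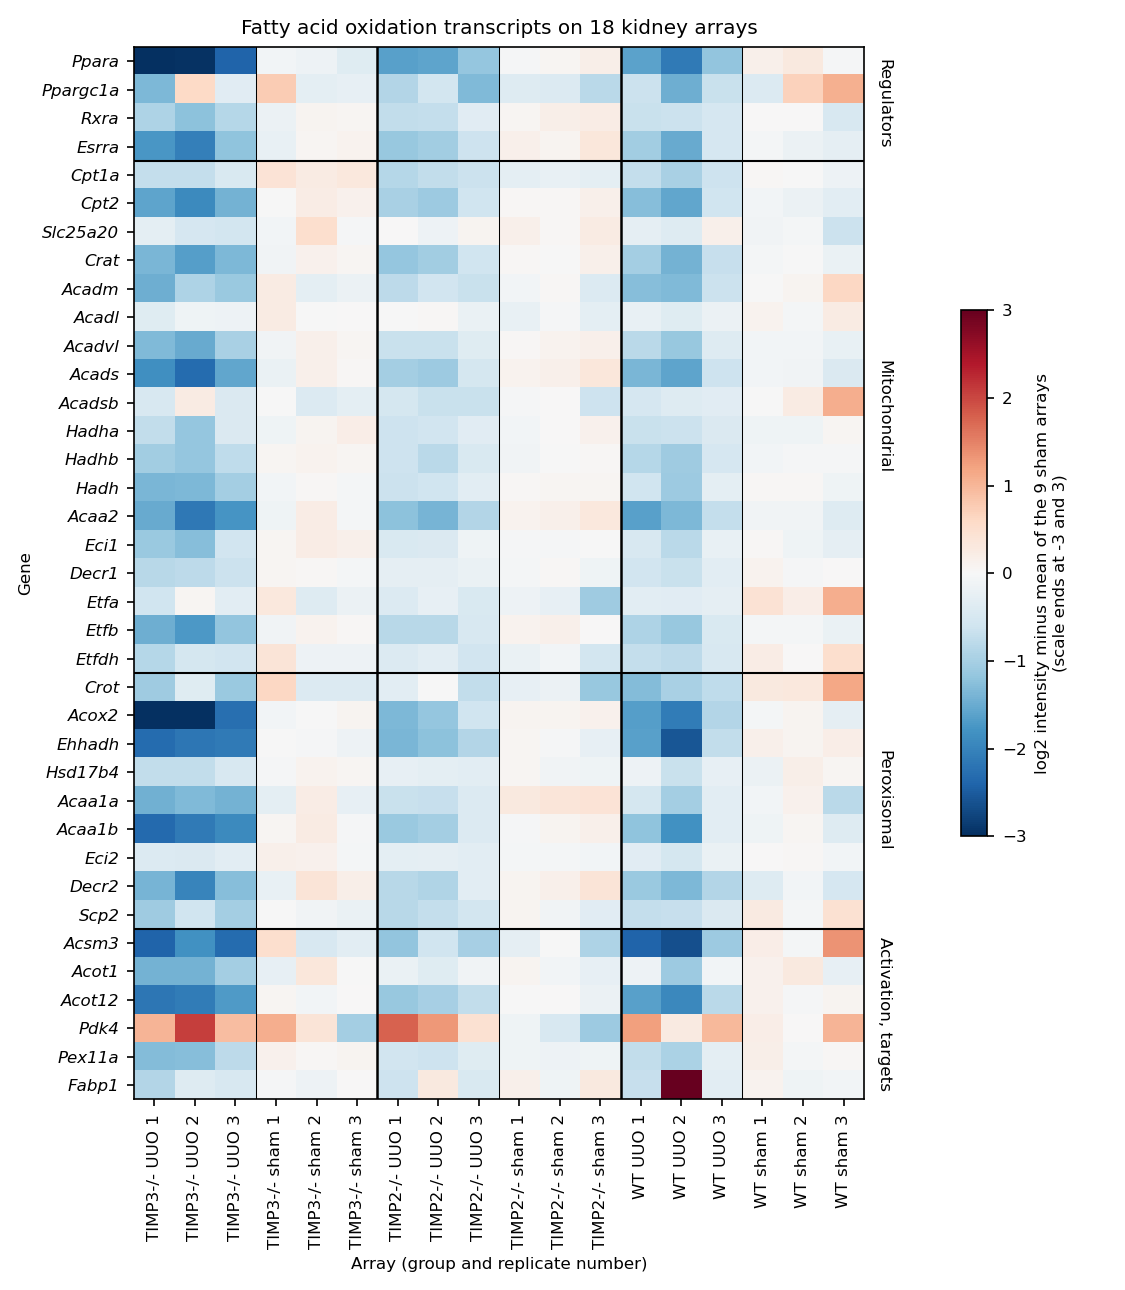
Each row is a member and each column an array, coloured by its log2 intensity minus the mean of the 9 sham arrays, with blue for lower and red for higher and the scale ending at -3 and 3. Obstructed arrays are blue in most rows, most deeply in the 3 TIMP3-/- UUO columns, while Pdk4 is red on all 9 of them and Fabp1 is dark red on WT UUO 2.

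Of the 4 regulators, Ppara, the fatty acid receptor itself, changed most. Its intensity was 220.5, 294.2 and 437.8 in TIMP3-/- UUO, 736.8, 765.7 and 1023 in TIMP2-/- UUO, and 760.7, 524.7 and 1015 in WT UUO. In the sham groups it was 2159, 2066 and 1790 in TIMP3-/- sham, 2252, 2379 and 2603 in TIMP2-/- sham, and 2551, 2812 and 2231 in WT sham. No obstructed array reached a sham array, and the 3 TIMP3-/- UUO arrays lay below all the other obstructed ones. Ppara fell in each genotype. UUO minus sham was -2.71 ± 0.24 in TIMP3-/-, -1.53 ± 0.24 in TIMP2-/- and -1.77 ± 0.24 in WT on the log2 scale (± SE of the fit throughout; limma, adjusted p = 1.04e-06, 0.000312 and 6.36e-05). Leaving out any 1 array kept these 3 calls.

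Esrra encodes ERRα, an orphan nuclear receptor that works with PGC-1α on mitochondrial genes. It had 775.5, 629.2 and 1128 in TIMP3-/- UUO, 1180, 1254 and 1678 in TIMP2-/- UUO, and 1246, 912.8 and 1833 in WT UUO. Sham arrays gave 2203, 2706 and 2798 in TIMP3-/- sham, 2896, 2723 and 3271 in TIMP2-/- sham, and 2483, 2280 and 2138 in WT sham. Again no obstructed array reached a sham array, though TIMP3-/- UUO 3 lay above WT UUO 2. Esrra fell, at -1.64 ± 0.24 in TIMP3-/-, -1.13 ± 0.24 in TIMP2-/- and -0.85 ± 0.24 in WT (limma, adjusted p = 4.64e-05, 0.00264 and 0.013), and the WT call was lost without WT UUO 2 (adjusted p = 0.0786).

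Rxra, which encodes the common partner of PPARα, had 656.7, 527.5 and 679.9 in TIMP3-/- UUO, 736.5, 752.8 and 976.1 in TIMP2-/- UUO, and 774.2, 785.9 and 872.7 in WT UUO. In sham kidneys its values were 1105, 1302 and 1285 in TIMP3-/- sham, 1297, 1410 and 1434 in TIMP2-/- sham, and 1258, 1258 and 893 in WT sham. Obstructed arrays were lower within each genotype, and across genotypes WT sham 3 lay below TIMP2-/- UUO 3. Rxra fell in each genotype, at -0.99 ± 0.16 in TIMP3-/-, -0.76 ± 0.16 in TIMP2-/- and -0.47 ± 0.16 in WT (limma, adjusted p = 9.63e-05, 0.00221 and 0.0303). Its WT call was lost without WT UUO 1, WT UUO 2, WT sham 1 or WT sham 2, with a highest adjusted p of 0.115.

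Ppargc1a, the gene of the coactivator PGC-1α, had 256.5, 999.1 and 521.6 in TIMP3-/- UUO, 356.6, 449.1 and 262.2 in TIMP2-/- UUO, and 421.3, 238.3 and 415.1 in WT UUO. Sham values were 1114, 538.7 and 556.9 in TIMP3-/- sham, 498.3, 496.5 and 374.7 in TIMP2-/- sham, and 495.7, 1066 and 1379 in WT sham. TIMP3-/- UUO 2 and WT sham 3 were the highest arrays of their operation, and the groups overlapped in both knockouts. UUO minus sham was -0.44 ± 0.46 in TIMP3-/-, -0.38 ± 0.46 in TIMP2-/- and -1.38 ± 0.46 in WT (limma, adjusted p = 0.403, 0.519 and 0.0308), so it fell in WT only by this test. That call was lost without WT UUO 2 (-1.11, adjusted p = 0.131), without WT sham 3 (-1.07, 0.128) or without WT sham 2, and without the 3 arrays that stood apart the value was -0.80 (0.226). The TIMP3-/- value was -0.92 without TIMP3-/- UUO 2 (limma, adjusted p = 0.0916). The other 4 probe sets of Ppargc1a gave -0.88 to -1.44 in WT and -0.35 to 0.25 in TIMP3-/-.

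The promoters of the members were searched for the letters these receptors bind, in windows of 250 bases before and 50 after a gene's start (RefSeq, GRCm38.p6). A window existed for 33 of the 37 members, 35 windows in all. Both strands were searched. AGGNCA repeated in the same direction with 1 base between, a form that PPARα with RXRα can bind, was in 125 of 32851 windows of all genes (0.381%) and in 1 member window, that of Fabp1. AAGGTCA, the extended half-site that ERRα can bind, was in 1550 windows (4.72%) and in 2 of the 35 member windows, those of Acadm and Rxra. That is near the share of all windows. With so few matches, the lack of a member with both motifs says nothing about the members. A match is a run of letters and not a shown site, and the absence of one says nothing about binding outside the window. The 250 bases before the start are printed for Acadm, an enzyme long studied as a target of these receptors, for Fabp1, and for Ehhadh, among the largest falls and without either motif. Capitals mark the matches, which are on the opposite strand in both genes. The windows are chr3:153944644-153944893 (minus strand) for Acadm, chr16:21787835-21788084 (minus strand) for Ehhadh and chr6:71199629-71199878 (plus strand) for Fabp1, each written 5′ to 3′ along the gene.
Acadm: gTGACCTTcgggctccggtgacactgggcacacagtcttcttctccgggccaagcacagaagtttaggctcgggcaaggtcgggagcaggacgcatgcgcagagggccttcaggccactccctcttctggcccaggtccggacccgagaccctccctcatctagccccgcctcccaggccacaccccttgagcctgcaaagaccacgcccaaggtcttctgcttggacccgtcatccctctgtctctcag
Ehhadh: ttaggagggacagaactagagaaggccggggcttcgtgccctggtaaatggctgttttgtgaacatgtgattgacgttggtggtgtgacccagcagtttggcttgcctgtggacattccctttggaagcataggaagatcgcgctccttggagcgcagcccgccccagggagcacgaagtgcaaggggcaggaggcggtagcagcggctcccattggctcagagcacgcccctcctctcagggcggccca
Fabp1: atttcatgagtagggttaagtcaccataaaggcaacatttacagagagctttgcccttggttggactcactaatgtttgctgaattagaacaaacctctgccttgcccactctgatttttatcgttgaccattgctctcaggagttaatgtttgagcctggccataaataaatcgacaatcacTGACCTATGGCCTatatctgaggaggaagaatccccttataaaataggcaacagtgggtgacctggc

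The carnitine shuttle carries long acyl chains into mitochondria. Cpt1a, the outer membrane transferase that controls entry, had 3200, 3170 and 3777 in TIMP3-/- UUO, 2903, 3150 and 3345 in TIMP2-/- UUO, and 3191, 2669 and 3413 in WT UUO. Sham arrays had 6895, 6181 and 6442 in TIMP3-/- sham, 4260, 4504 and 4239 in TIMP2-/- sham, and 5312, 5149 and 4675 in WT sham. All obstructed arrays lay between 2669 and 3777, under the lowest sham array, whichever the genotype. Cpt1a fell, at -0.95 ± 0.12 in TIMP3-/-, -0.47 ± 0.12 in TIMP2-/- and -0.71 ± 0.12 in WT (limma, adjusted p = 1.17e-05, 0.00696 and 0.000295). Its other 2 probe sets also read lower, with -0.38 and -0.48 in TIMP2-/- and -0.56 and -0.59 in WT.

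Cpt2, the inner membrane transferase, averaged 1873 ± 311.5 in TIMP3-/- UUO, 3171 ± 583.2 in TIMP2-/- UUO and 2724 ± 972.5 in WT UUO, against 6260 ± 465 in TIMP3-/- sham, 6061 ± 262.1 in TIMP2-/- sham and 5077 ± 445.5 in WT sham (SD, n = 3 each). The TIMP3-/- UUO mean was the lowest of the 6. Cpt2 fell, at -1.75 ± 0.20 in TIMP3-/-, -0.95 ± 0.20 in TIMP2-/- and -0.95 ± 0.20 in WT (limma, adjusted p = 7.3e-06, 0.00294 and 0.0023). Crat, which transfers acetyl groups to carnitine, had 526.2, 429.5 and 527.7 in TIMP3-/- UUO, 607.6, 660.4 and 895 in TIMP2-/- UUO, and 668.7, 508.9 and 835.8 in WT UUO. In sham kidneys it had 1264, 1477 and 1417 in TIMP3-/- sham, 1389, 1352 and 1503 in TIMP2-/- sham, and 1303, 1341 and 1170 in WT sham. The obstructed and sham arrays were fully apart, and Crat fell, at -1.49 ± 0.17 in TIMP3-/-, -0.99 ± 0.17 in TIMP2-/- and -0.95 ± 0.17 in WT (limma, adjusted p = 7.62e-06, 0.000727 and 0.000757).

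Slc25a20, the carnitine-acylcarnitine translocase, had the smallest differences of the shuttle genes. Its intensity was 2260, 1951 and 1892 in TIMP3-/- UUO, 2773, 2483 and 2933 in TIMP2-/- UUO, and 2295, 2113 and 3071 in WT UUO. Sham values were 2621, 3893 and 2690 in TIMP3-/- sham, 3057, 2854 and 3281 in TIMP2-/- sham, and 2567, 2662 and 1770 in WT sham. WT sham 3 was the lowest of all 18 arrays and TIMP3-/- sham 2 the highest. Slc25a20 fell in TIMP3-/- only by this test, with -0.57 ± 0.19 in TIMP3-/-, -0.17 ± 0.19 in TIMP2-/- and 0.10 ± 0.19 in WT (limma, adjusted p = 0.0155, 0.488 and 0.708), and that call was lost without TIMP3-/- sham 2 (adjusted p = 0.0938).

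Acyl-CoA dehydrogenases take the opening step of each cycle, divided by chain length. Acadm, for medium chains, had 4466, 6471 and 5654 in TIMP3-/- UUO, 7124, 8206 and 7775 in TIMP2-/- UUO, and 5080, 4859 and 7880 in WT UUO. Its sham values were 14425, 10021 and 10884 in TIMP3-/- sham, 11575, 12599 and 9255 in TIMP2-/- sham, and 12162, 12921 and 18719 in WT sham, with WT sham 3 the highest. Every obstructed array lay below every sham array. Acadm fell in TIMP3-/- and in WT, and in TIMP2-/- it missed the threshold, with -1.09 ± 0.22 in TIMP3-/-, -0.52 ± 0.22 in TIMP2-/- and -1.31 ± 0.22 in WT (limma, adjusted p = 0.000685, 0.0702 and 0.000342). The TIMP2-/- value passed in the fit without the 3 arrays that stood apart (0.0384), none of which is a TIMP2-/- array.

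Acadl, for long chains, had 5462, 6456 and 6382 in TIMP3-/- UUO, 7027, 7236 and 6107 in TIMP2-/- UUO, and 6078, 5489 and 6231 in WT UUO. The sham arrays had 8354, 6940 and 7104 in TIMP3-/- sham, 6059, 6930 and 5760 in TIMP2-/- sham, and 7589, 6764 and 8375 in WT sham. The 2 sets overlapped, since TIMP2-/- sham 1 and 3 were as low as many obstructed arrays. Acadl fell in WT alone by this test, with -0.29 ± 0.13 in TIMP3-/-, 0.12 ± 0.13 in TIMP2-/- and -0.35 ± 0.13 in WT (limma, adjusted p = 0.0549, 0.46 and 0.0449), and the WT value was -0.29 (0.159) without WT UUO 2 and -0.27 (0.156) without WT sham 3. Leaving out WT UUO 1, WT UUO 3 or WT sham 1 also ended this call.

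Acadvl, for very long chains, averaged 2559 ± 493.5 in TIMP3-/- UUO, 4136 ± 513.8 in TIMP2-/- UUO and 3654 ± 947.6 in WT UUO, against 6259 ± 523.2 in TIMP3-/- sham, 6549 ± 221.7 in TIMP2-/- sham and 5589 ± 340.9 in WT sham (SD, n = 3 each). It fell, at -1.30 ± 0.17 in TIMP3-/-, -0.67 ± 0.17 in TIMP2-/- and -0.64 ± 0.17 in WT (limma, adjusted p = 2.17e-05, 0.00851 and 0.0102), and the WT call was lost without WT UUO 2 (0.0637). Acads, for short chains, averaged 1342 ± 343.2 in TIMP3-/- UUO, 2708 ± 614.2 in TIMP2-/- UUO and 2235 ± 832.7 in WT UUO, against 4942 ± 614.5 in TIMP3-/- sham, 5654 ± 462.7 in TIMP2-/- sham and 4290 ± 567.7 in WT sham (SD, n = 3 each). Acads showed the largest fall of the mitochondrial members in TIMP3-/-, at -1.91 ± 0.24 in TIMP3-/-, -1.08 ± 0.24 in TIMP2-/- and -0.99 ± 0.24 in WT (limma, adjusted p = 1.39e-05, 0.00361 and 0.00526).

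Acadsb, for short branched chains, is represented by a probe set whose suffix marks possible matches to other transcripts, as are Hadh, Acaa2, Hsd17b4 and Acaa1a. It had 311.5, 516.3 and 319.6 in TIMP3-/- UUO, 298.5, 272.2 and 273.5 in TIMP2-/- UUO, and 307.9, 329.2 and 340.5 in WT UUO. The sham groups had 432.6, 328 and 356 in TIMP3-/- sham, 424.1, 436.2 and 282.6 in TIMP2-/- sham, and 427.7, 515.6 and 926.6 in WT sham. TIMP3-/- UUO 2 was the highest obstructed array and WT sham 3 the highest of all. UUO minus sham was 0.01 ± 0.26 in TIMP3-/-, -0.41 ± 0.26 in TIMP2-/- and -0.86 ± 0.26 in WT (limma, adjusted p = 0.979, 0.211 and 0.0188), so that Acadsb fell in WT only by this test, and the value there was -0.53 (0.0978) without WT sham 3. Without WT UUO 1 the call was lost as well.

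Hadha and Hadhb encode the subunits of the trifunctional protein, which takes the later steps for long chains. Hadha had 1232, 918.3 and 1514 in TIMP3-/- UUO, 1337, 1371 and 1606 in TIMP2-/- UUO, and 1285, 1321 and 1518 in WT UUO. In sham kidneys it had 1882, 2186 and 2355 in TIMP3-/- sham, 1945, 2060 and 2228 in TIMP2-/- sham, and 1860, 1866 and 2122 in WT sham. Obstructed and sham arrays were fully apart, and Hadha fell, at -0.83 ± 0.16 in TIMP3-/-, -0.53 ± 0.16 in TIMP2-/- and -0.51 ± 0.16 in WT (limma, adjusted p = 0.000469, 0.0177 and 0.0242). Its WT call was lost without WT UUO 1, WT UUO 2 or WT sham 3 (highest adjusted p 0.0837), and its TIMP2-/- call without TIMP2-/- UUO 1, TIMP2-/- UUO 2 or TIMP2-/- sham 3 (0.0726). Hadhb averaged 3018 ± 442.6 in TIMP3-/- UUO, 3862 ± 441.5 in TIMP2-/- UUO and 3443 ± 703.8 in WT UUO, against 6271 ± 74.27 in TIMP3-/- sham, 5829 ± 271.7 in TIMP2-/- sham and 5747 ± 102.6 in WT sham (SD, n = 3 each). It fell, at -1.07 ± 0.14 in TIMP3-/-, -0.60 ± 0.14 in TIMP2-/- and -0.76 ± 0.14 in WT (limma, adjusted p = 2.38e-05, 0.00546 and 0.000909). The other probe set of Hadhb showed smaller falls, at -0.72 in TIMP3-/-, -0.24 in TIMP2-/- and -0.27 in WT.

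Hadh, the dehydrogenase for shorter hydroxyacyl chains, was the brightest member, though levels of different probe sets are not comparable. It had 10175, 10302 and 13029 in TIMP3-/- UUO, 16762, 17422 and 21126 in TIMP2-/- UUO, and 17277, 12319 and 21401 in WT UUO. Its sham values were 24948, 27010 and 25335 in TIMP3-/- sham, 27167, 27446 and 27487 in TIMP2-/- sham, and 27093, 26905 and 24064 in WT sham. Each obstructed array lay below each sham array. Hadh fell, at -1.21 ± 0.17 in TIMP3-/-, -0.58 ± 0.17 in TIMP2-/- and -0.65 ± 0.17 in WT (limma, adjusted p = 3.01e-05, 0.0153 and 0.00794). Its WT value was -0.43 (0.046) without WT UUO 2, and its TIMP2-/- call was lost without TIMP2-/- UUO 1 or 2 (0.0689).

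Acaa2 is the mitochondrial thiolase of the closing step. It had 2100, 1363 and 1764 in TIMP3-/- UUO, 2543, 2276 and 3235 in TIMP2-/- UUO, and 1947, 2340 and 3671 in WT UUO. The sham arrays had 5516, 6975 and 5771 in TIMP3-/- sham, 6427, 6644 and 7466 in TIMP2-/- sham, and 5561, 5529 and 4599 in WT sham. No obstructed array exceeded 3671, and no sham array was under 4599. Acaa2 fell, at -1.82 ± 0.22 in TIMP3-/-, -1.36 ± 0.22 in TIMP2-/- and -1.03 ± 0.22 in WT (limma, adjusted p = 8.18e-06, 0.000305 and 0.00199), and its other 2 probe sets gave -1.75 and -2.14 in TIMP3-/-.

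Eci1 and Decr1 handle the double bonds of unsaturated chains. Eci1, an isomerase, averaged 1785 ± 479.8 in TIMP3-/- UUO, 2740 ± 376.7 in TIMP2-/- UUO and 2470 ± 492.9 in WT UUO, against 3823 ± 198 in TIMP3-/- sham, 3380 ± 50.58 in TIMP2-/- sham and 3199 ± 345.5 in WT sham (SD, n = 3 each). It fell in TIMP3-/- and did not pass otherwise, with -1.13 ± 0.18 in TIMP3-/-, -0.31 ± 0.18 in TIMP2-/- and -0.39 ± 0.18 in WT (limma, adjusted p = 9.91e-05, 0.175 and 0.107). The WT value was -0.23 (0.393) without WT UUO 2, and without WT UUO 3 it passed (-0.53, 0.0435). Decr1, a reductase, had 2744, 2842 and 3154 in TIMP3-/- UUO, 4076, 4060 and 4246 in TIMP2-/- UUO, and 3310, 3063 and 3943 in WT UUO. Its sham values were 5135, 5045 and 4691 in TIMP3-/- sham, 4712, 5051 and 4486 in TIMP2-/- sham, and 5257, 4763 and 4952 in WT sham. All 9 obstructed arrays lay below all 9 sham arrays, yet the TIMP2-/- difference was small at this probe set. Decr1 fell in TIMP3-/- and WT, with -0.77 ± 0.11 in TIMP3-/-, -0.20 ± 0.11 in TIMP2-/- and -0.54 ± 0.11 in WT (limma, adjusted p = 4.25e-05, 0.156 and 0.00155). Its other, dimmer probe set read -1.22 in TIMP3-/-, -0.51 in TIMP2-/- and -1.36 in WT. With the mean of probe sets the TIMP2-/- value of Decr1 passed too.

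Electrons from the dehydrogenases pass to the electron transfer flavoprotein, whose subunits are Etfa and Etfb, and on to Etfdh. Etfb had 3997, 3312 and 4835 in TIMP3-/- UUO, 6175, 6188 and 7840 in TIMP2-/- UUO, and 5799, 5003 and 8030 in WT UUO. In sham it had 10288, 11748 and 11303 in TIMP3-/- sham, 11745, 12241 and 11014 in TIMP2-/- sham, and 10620, 10577 and 9574 in WT sham. The operations were fully apart and Etfb fell, at -1.47 ± 0.17 in TIMP3-/-, -0.80 ± 0.17 in TIMP2-/- and -0.74 ± 0.17 in WT (limma, adjusted p = 7.03e-06, 0.00278 and 0.00392).

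Its partner subunit Etfa followed another course. Etfa had 2468, 3839 and 2979 in TIMP3-/- UUO, 2796, 3125 and 2706 in TIMP2-/- UUO, and 2965, 2912 and 3080 in WT UUO. The sham groups had 4604, 2824 and 3286 in TIMP3-/- sham, 3334, 3148 and 1761 in TIMP2-/- sham, and 5022, 4254 and 7864 in WT sham. TIMP2-/- sham 3 was the lowest array of all and WT sham 3 the highest. Etfa fell in WT only by this test, with -0.20 ± 0.26 in TIMP3-/-, 0.12 ± 0.26 in TIMP2-/- and -0.89 ± 0.26 in WT (limma, adjusted p = 0.512, 0.733 and 0.0172), and the WT value was -0.63 (0.0915) without WT sham 3 and -0.87 (0.0511) without WT UUO 2. Etfdh, the oxidoreductase that passes the electrons to ubiquinone, had 1817, 2308 and 2209 in TIMP3-/- UUO, 2466, 2644 and 2202 in TIMP2-/- UUO, and 1997, 1900 and 2368 in WT UUO. Sham arrays had 4281, 2980 and 2962 in TIMP3-/- sham, 2888, 3137 and 2244 in TIMP2-/- sham, and 3845, 3349 and 4703 in WT sham. TIMP2-/- sham 3 lay among the obstructed arrays. Etfdh fell in TIMP3-/- and WT, at -0.68 ± 0.18 in TIMP3-/-, -0.17 ± 0.18 in TIMP2-/- and -0.92 ± 0.18 in WT (limma, adjusted p = 0.00467, 0.469 and 0.00121).

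In counts, 15 of the 18 mitochondrial members fell in TIMP3-/- (median log2 difference -1.08), 10 in TIMP2-/- (-0.53) and 16 in WT (-0.75). Of all genes 38.8%, 22.0% and 16.2% fell in these genotypes, with medians of -0.19, -0.12 and -0.09. The members that fell in all 3 genotypes were Cpt1a, Cpt2, Crat, Acadvl, Acads, Hadha, Hadhb, Hadh, Acaa2 and Etfb. Of those called in WT only, Acadl, Acadsb and Etfa, each was highest among sham arrays on WT sham 3. The plot of 12 members shows the spread behind several of these values.

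**Figure D2:**
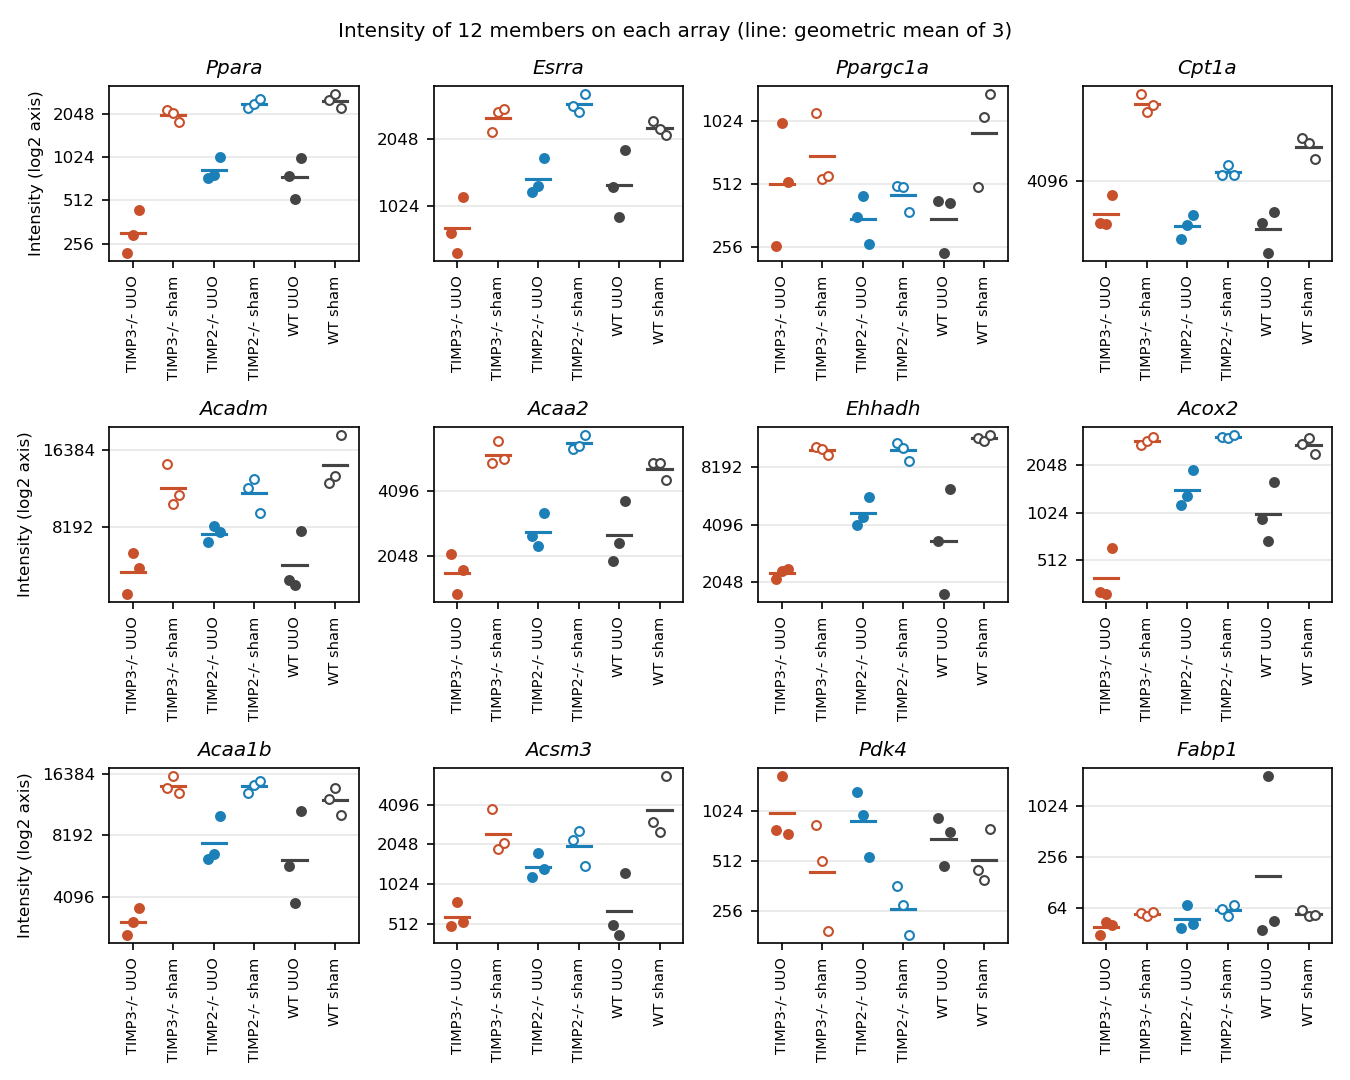
Intensity on a log2 axis for 12 members, with filled points for UUO arrays, open points for sham arrays and a line at the geometric mean of each group of 3. Ppara, Acox2 and Acaa1b are lowest on the TIMP3-/- UUO arrays, Pdk4 overlaps between operations in TIMP3-/- and WT, and Fabp1 is at 70.64 or lower except on WT UUO 2.

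The largest fall of any member in TIMP3-/- was that of a peroxisomal enzyme. Acox2, which oxidises branched-chain acyl-CoAs and bile acid intermediates, had 322.5, 311.1 and 610.2 in TIMP3-/- UUO, 1153, 1302 and 1927 in TIMP2-/- UUO, and 935.6, 679.8 and 1603 in WT UUO. In sham kidneys it had 2755, 2913 and 3108 in TIMP3-/- sham, 3084, 3075 and 3196 in TIMP2-/- sham, and 2789, 3076 and 2419 in WT sham. The 3 TIMP3-/- UUO arrays were the lowest of all 18, and no obstructed array reached a sham array. Acox2 fell, at -2.89 ± 0.29 in TIMP3-/-, -1.13 ± 0.29 in TIMP2-/- and -1.45 ± 0.29 in WT (limma, adjusted p = 2.39e-06, 0.00789 and 0.00135).

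Ehhadh, the bifunctional enzyme of the inducible peroxisomal pathway, had 2128, 2339 and 2405 in TIMP3-/- UUO, 4080, 4505 and 5691 in TIMP2-/- UUO, and 3366, 1783 and 6302 in WT UUO. Its sham values were 10426, 10197 and 9400 in TIMP3-/- sham, 10898, 10295 and 8832 in TIMP2-/- sham, and 11564, 11143 and 12009 in WT sham. Sham arrays spanned a narrow band and obstructed arrays a wide one, from WT UUO 2 at the bottom to WT UUO 3 at the top. Ehhadh fell, at -2.13 ± 0.30 in TIMP3-/-, -1.08 ± 0.30 in TIMP2-/- and -1.78 ± 0.30 in WT (limma, adjusted p = 3.22e-05, 0.0115 and 0.000316), and the TIMP2-/- call was lost without TIMP2-/- UUO 1 (0.053). Hsd17b4, the other bifunctional enzyme, averaged 2145 ± 216.6 in TIMP3-/- UUO, 2772 ± 63.11 in TIMP2-/- UUO and 2650 ± 482.5 in WT UUO, against 3453 ± 164.1 in TIMP3-/- sham, 3231 ± 239.2 in TIMP2-/- sham and 3450 ± 422.8 in WT sham (SD, n = 3 each). It fell in TIMP3-/- and WT, with -0.69 ± 0.14 in TIMP3-/-, -0.22 ± 0.14 in TIMP2-/- and -0.39 ± 0.14 in WT (limma, adjusted p = 0.000698, 0.219 and 0.0418), and the WT call was lost without WT UUO 2, WT sham 2 or WT sham 3 (highest adjusted p 0.225).

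Acaa1a and Acaa1b encode near-identical peroxisomal thiolases, so their probe sets may share signal. Acaa1b had 2669, 3098 and 3620 in TIMP3-/- UUO, 6284, 6621 and 10223 in TIMP2-/- UUO, and 5826, 3835 and 10818 in WT UUO. The sham groups had 14023, 15977 and 13184 in TIMP3-/- sham, 13158, 14382 and 15114 in TIMP2-/- sham, and 12385, 13995 and 10345 in WT sham. The 3 TIMP3-/- UUO arrays were the lowest, while WT UUO 3 lay above WT sham 3. Acaa1b fell, at -2.21 ± 0.28 in TIMP3-/-, -0.92 ± 0.28 in TIMP2-/- and -0.96 ± 0.28 in WT (limma, adjusted p = 1.56e-05, 0.0205 and 0.0164). Its WT call was lost without WT UUO 1, WT UUO 2 or WT sham 2 (highest adjusted p 0.0958), and its TIMP2-/- call without any of 4 arrays (TIMP2-/- UUO 1 and 2 and TIMP2-/- sham 2 and 3; 0.089).

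Acaa1a had 382.4, 411.4 and 389.4 in TIMP3-/- UUO, 651.1, 645.5 and 780.1 in TIMP2-/- UUO, and 719, 511.6 and 836.6 in WT UUO. Sham arrays had 841.9, 1214 and 879.7 in TIMP3-/- sham, 1267, 1325 and 1386 in TIMP2-/- sham, and 982.9, 1131 and 589.1 in WT sham. WT sham 3 lay among the WT UUO arrays. Acaa1a fell in both knockouts and did not pass in WT, with -1.29 ± 0.22 in TIMP3-/-, -0.94 ± 0.22 in TIMP2-/- and -0.36 ± 0.22 in WT (limma, adjusted p = 0.000201, 0.00509 and 0.222). The WT value passed without WT sham 3 (-0.64, limma, adjusted p = 0.0265), and without WT UUO 2 it was -0.16 (0.642).

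Decr2 and Eci2 are the peroxisomal counterparts of the enzymes for unsaturated chains. Decr2 had 601.2, 402.3 and 649.9 in TIMP3-/- UUO, 885.8, 856.3 and 1275 in TIMP2-/- UUO, and 736.5, 618.9 and 857.7 in WT UUO. In sham it had 1363, 2079 and 1792 in TIMP3-/- sham, 1689, 1768 and 2082 in TIMP2-/- sham, and 1218, 1489 and 1120 in WT sham. TIMP2-/- UUO 3 overlapped the WT sham arrays, but within each genotype the operations were apart. Decr2 fell, at -1.67 ± 0.22 in TIMP3-/-, -0.89 ± 0.22 in TIMP2-/- and -0.79 ± 0.22 in WT (limma, adjusted p = 1.7e-05, 0.00577 and 0.0109), and its WT call was lost without WT UUO 2 (0.0558). Eci2 averaged 2188 ± 88.09 in TIMP3-/- UUO, 2340 ± 34.59 in TIMP2-/- UUO and 2241 ± 258.2 in WT UUO, against 3025 ± 236.9 in TIMP3-/- sham, 2731 ± 31.66 in TIMP2-/- sham and 2831 ± 110.6 in WT sham (SD, n = 3 each). It fell in TIMP3-/- and WT, with -0.46 ± 0.10 in TIMP3-/-, -0.22 ± 0.10 in TIMP2-/- and -0.34 ± 0.10 in WT (limma, adjusted p = 0.00149, 0.0997 and 0.0197), and its WT call was lost without WT UUO 2, WT sham 1 or WT sham 2 (highest 0.112).

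Crot passes medium chains from peroxisomes to mitochondria as carnitine esters. It had 1760, 2836 and 1693 in TIMP3-/- UUO, 2940, 3622 and 2188 in TIMP2-/- UUO, and 1485, 1880 and 2162 in WT UUO. The sham arrays had 5602, 2747 and 2771 in TIMP3-/- sham, 3114, 3264 and 1659 in TIMP2-/- sham, and 4479, 4583 and 8139 in WT sham. WT sham 3 was the highest array, TIMP2-/- sham 3 was among the lowest, and in both knockouts the operations overlapped. Crot fell in WT only by this test, with -0.78 ± 0.34 in TIMP3-/-, 0.16 ± 0.34 in TIMP2-/- and -1.60 ± 0.34 in WT (limma, adjusted p = 0.0563, 0.73 and 0.00227), and the WT value was -1.32 (0.0152) without WT sham 3 and -1.34 (0.0276) without the 3 arrays that stood apart. In TIMP3-/- Crot also passed without TIMP3-/- UUO 2 (-1.02, limma, adjusted p = 0.0316), without TIMP3-/- sham 2 (-0.95, 0.0478) and without the 3 arrays that stood apart (-1.02, 0.026).

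Scp2, a gene for a lipid carrier and a thiolase of branched chains, had 4163, 5822 and 4347 in TIMP3-/- UUO, 4918, 5361 and 5982 in TIMP2-/- UUO, and 5374, 5412 and 6482 in WT UUO. Sham values were 8756, 8093 and 7621 in TIMP3-/- sham, 9283, 8198 and 6905 in TIMP2-/- sham, and 10658, 8444 and 12103 in WT sham. Every obstructed array lay below every sham array. Scp2 fell, at -0.79 ± 0.17 in TIMP3-/-, -0.58 ± 0.17 in TIMP2-/- and -0.84 ± 0.17 in WT (limma, adjusted p = 0.000961, 0.0142 and 0.0012), and its TIMP2-/- call was lost without TIMP2-/- UUO 1 or TIMP2-/- sham 1 (0.066). Of its other 3 probe sets, 1 had the opposite sign in TIMP3-/- (0.06) and read -0.03 in TIMP2-/-. With the mean of probe sets the calls of Scp2 in TIMP3-/- and TIMP2-/- were both lost.

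Of the 9 peroxisomal members, 8 fell in TIMP3-/- (median log2 difference -1.29), 6 in TIMP2-/- (-0.89) and 8 in WT (-0.84). The shares of all genes that fell were 38.8%, 22.0% and 16.2%, with medians of -0.19, -0.12 and -0.09. The mean log2 difference of the 9 from sham was -1.55, -1.44 and -1.33 on the TIMP3-/- UUO arrays, -0.78, -0.70 and -0.50 on the TIMP2-/- UUO arrays, and -0.96, -1.30 and -0.53 on the WT UUO arrays. The 18 mitochondrial members gave -1.05, -1.08 and -0.85 in TIMP3-/- UUO, -0.64, -0.64 and -0.45 in TIMP2-/- UUO, and -0.79, -0.95 and -0.42 in WT UUO. Both classes were therefore lowest, on average, on the TIMP3-/- UUO arrays, and in mitochondrial enzymes WT UUO 2 lay between TIMP3-/- UUO 3 and the other TIMP3-/- UUO arrays, while in peroxisomal ones it lay just above them. Sham arrays lay between -0.10 and 0.08 for either class.

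**Figure D3:**
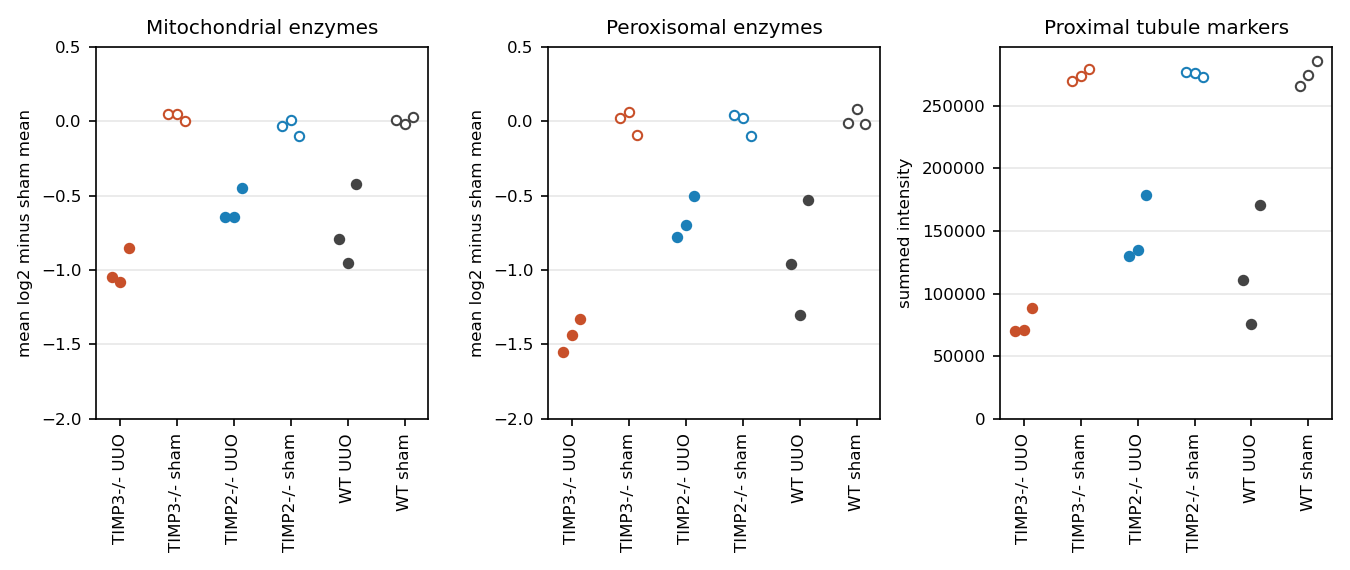
The left and middle panels give, for each array, the mean log2 intensity of the 18 mitochondrial and 9 peroxisomal enzymes minus the mean of the 9 sham arrays. The right panel gives the summed intensity of 19 proximal tubule markers, from 69705 to 178630 on UUO arrays and from 266142 to 286157 on sham arrays, with filled points for UUO and open points for sham.

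Among the genes of activation and the known targets, Acsm3, a medium-chain acyl-CoA synthetase, had 497.5, 745.3 and 530.8 in TIMP3-/- UUO, 1160, 1753 and 1333 in TIMP2-/- UUO, and 502.8, 423 and 1243 in WT UUO. Its sham values were 3768, 1902 and 2107 in TIMP3-/- sham, 2197, 2607 and 1397 in TIMP2-/- sham, and 3019, 2539 and 6750 in WT sham. WT sham 3 was far above the rest and TIMP2-/- sham 3 lay within the TIMP2-/- UUO range. Acsm3 fell in TIMP3-/- and WT, with -2.09 ± 0.42 in TIMP3-/-, -0.52 ± 0.42 in TIMP2-/- and -2.54 ± 0.42 in WT (limma, adjusted p = 0.000695, 0.332 and 0.000311), and the WT value was -2.11 (0.00214) without WT sham 3.

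Acot12, a thioesterase that splits acetyl-CoA, had 563, 598 and 785.9 in TIMP3-/- UUO, 1152, 1274 and 1518 in TIMP2-/- UUO, and 818.8, 661.9 and 1445 in WT UUO. In sham kidneys it had 2635, 2414 and 2557 in TIMP3-/- sham, 2541, 2564 and 2248 in TIMP2-/- sham, and 2802, 2481 and 2714 in WT sham. The operations were fully apart, and TIMP3-/- UUO 1 was the lowest array. Acot12 fell, at -1.98 ± 0.22 in TIMP3-/-, -0.91 ± 0.22 in TIMP2-/- and -1.53 ± 0.22 in WT (limma, adjusted p = 4.82e-06, 0.00568 and 8.7e-05). Acot1, a cytosolic acyl-CoA thioesterase with close paralogs, averaged 1249 ± 207.4 in TIMP3-/- UUO, 2597 ± 217.8 in TIMP2-/- UUO and 2328 ± 795.4 in WT UUO, against 3112 ± 659.2 in TIMP3-/- sham, 2854 ± 319.5 in TIMP2-/- sham and 3209 ± 591 in WT sham (SD, n = 3 each). It fell in TIMP3-/- and did not pass otherwise, with -1.31 ± 0.24 in TIMP3-/-, -0.13 ± 0.24 in TIMP2-/- and -0.51 ± 0.24 in WT (limma, adjusted p = 0.000326, 0.67 and 0.11). The WT value was -0.19 (0.528) without WT UUO 2, and without WT UUO 3 it passed (-0.70, limma, adjusted p = 0.0451).

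Pex11a, whose product takes part in peroxisome division, averaged 604.5 ± 129.8 in TIMP3-/- UUO, 908.9 ± 91.21 in TIMP2-/- UUO and 832.1 ± 196 in WT UUO, against 1375 ± 47.51 in TIMP3-/- sham, 1183 ± 11.36 in TIMP2-/- sham and 1340 ± 106.5 in WT sham (SD, n = 3 each). It fell in TIMP3-/- and WT, with -1.21 ± 0.16 in TIMP3-/-, -0.38 ± 0.16 in TIMP2-/- and -0.71 ± 0.16 in WT (limma, adjusted p = 2.61e-05, 0.0742 and 0.00378), and with the replicate number as a block the TIMP2-/- value passed too (0.0419). Pdk4, a kinase that shuts off pyruvate dehydrogenase and is induced by PPARα in fasting, went the other way. It had 795.6, 1671 and 744.7 in TIMP3-/- UUO, 1345, 970.3 and 542 in TIMP2-/- UUO, and 928.6, 477 and 771.1 in WT UUO. The sham groups had 846, 514 and 196.1 in TIMP3-/- sham, 362.3, 281.2 and 184.5 in TIMP2-/- sham, and 453.3, 394.5 and 804.5 in WT sham. In TIMP2-/- the operations did not overlap, whereas TIMP3-/- sham 1 and WT sham 3 lay above several obstructed arrays.

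Pdk4 rose in TIMP3-/- and TIMP2-/-, with 1.18 ± 0.50 in TIMP3-/-, 1.74 ± 0.50 in TIMP2-/- and 0.42 ± 0.50 in WT (limma, adjusted p = 0.0494, 0.0144 and 0.546). The TIMP3-/- call was lost without TIMP3-/- UUO 1 or 2 or TIMP3-/- sham 2 or 3 (highest adjusted p 0.284) and without the 3 arrays that stood apart (0.81, 0.185), and the TIMP2-/- call without TIMP2-/- UUO 1 or 2 or TIMP2-/- sham 3 (0.0734). Fabp1, the fatty acid binding protein best known from liver, had 31.15, 43.82 and 40.84 in TIMP3-/- UUO, 37.3, 70.64 and 41.97 in TIMP2-/- UUO, and 35.47, 2306 and 45.82 in WT UUO. Sham arrays had 55.81, 51.99 and 57.57 in TIMP3-/- sham, 63.29, 52.76 and 69.94 in TIMP2-/- sham, and 61.34, 52.36 and 53.87 in WT sham. On 17 arrays Fabp1 lay between 31.15 and 70.64, near the arrays' 25th percentiles, and WT UUO 2, the array with the high hepatocyte markers, stood alone above them. UUO minus sham in WT was 1.48 ± 1.01 (limma, adjusted p = 0.277) and rests on that array, since without it the value was -0.47 (0.175).

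WT UUO 2 was at the same time the lowest obstructed array for Ppargc1a, Cpt1a, Ehhadh, Eci2, Acsm3 and Pdk4 (6.12% of all genes were lowest there). Of the 20 hepatocyte markers 5 rose and 2 fell in WT, 3 rose and 2 fell in TIMP2-/-, and 2 rose and 5 fell in TIMP3-/-. Of all genes 16.8% rose and 16.2% fell in WT, 15.9% and 22.0% in TIMP2-/-, and 25.7% and 38.8% in TIMP3-/-. The part of the hepatocyte transcripts in the WT values was not tested.

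**Figure D4:**
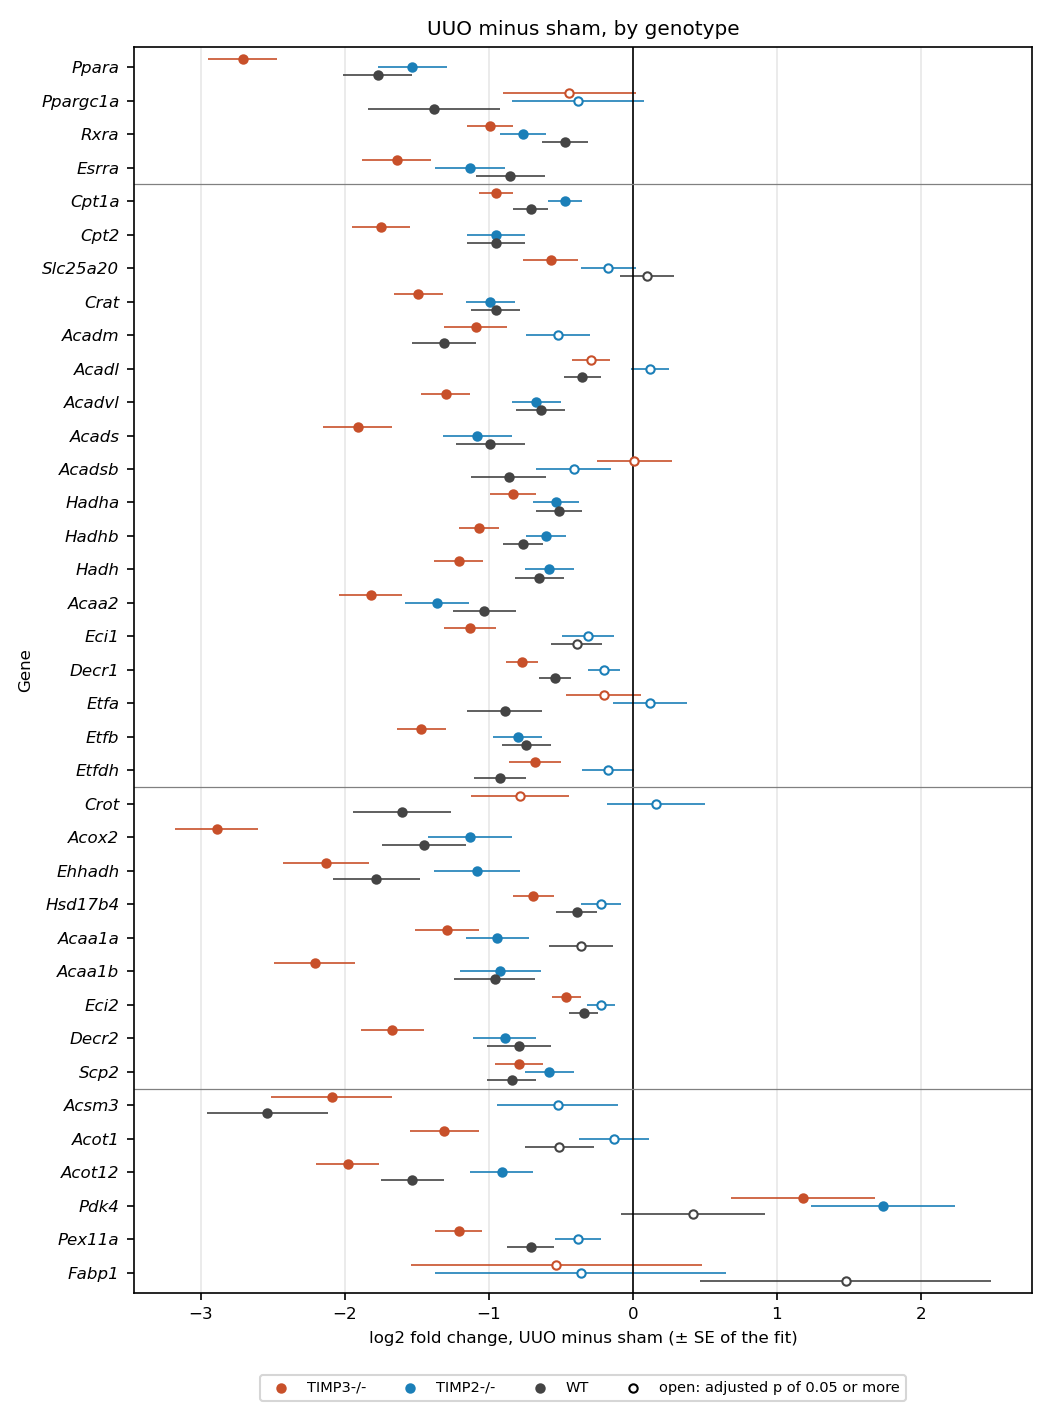
Points give UUO minus sham on the log2 scale for each member in TIMP3-/-, TIMP2-/- and WT, with bars for the SE of the fit and open points where the adjusted p was 0.05 or more. Most points lie left of 0, the TIMP3-/- point furthest left for most members, with Pdk4 to the right of 0 in all 3 genotypes.

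Among obstructed kidneys, 16 of the 37 members were lower in TIMP3-/- than in TIMP2-/- and none was higher (6.09% of all genes were lower and 1.98% higher), with a median log2 difference of -0.53 beside -0.11 for all genes. They were Ppara, 7 mitochondrial enzymes, 5 peroxisomal enzymes, and Acot1, Acot12 and Pex11a. Acox2 differed most, at -1.85 ± 0.29 (limma, adjusted p = 0.00653), and its 311.1 to 610.2 in TIMP3-/- UUO did not overlap 1153 to 1927 in TIMP2-/- UUO. Ppara differed by -1.45 ± 0.24 (0.00929) and Acaa1b by -1.28 ± 0.28 (0.0224), with limma.

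The 7 mitochondrial enzymes were Acads (-1.02 ± 0.24), Cpt2 (-0.76 ± 0.20), Etfb (-0.74 ± 0.17), Hadh (-0.73 ± 0.17), Acadvl (-0.70 ± 0.17), Eci1 (-0.64 ± 0.18) and Decr1 (-0.50 ± 0.11), with limma adjusted p from 0.0222 to 0.0416. The other peroxisomal ones were Ehhadh (-1.04 ± 0.30), Decr2 (-0.87 ± 0.22) and Acaa1a (-0.81 ± 0.22), with adjusted p of 0.0444, 0.0299 and 0.0405. Acot1 differed by -1.07 ± 0.24, Acot12 by -1.02 ± 0.22 and Pex11a by -0.60 ± 0.16 (limma, adjusted p = 0.0229, 0.0201 and 0.0385). Cpt1a did not pass at its brightest probe set (0.11 ± 0.12), and its other 2 probe sets read lower, at -0.44 and -0.61.

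These calls rest on few arrays. The count was 6 without TIMP2-/- UUO 1 (1.85% of all genes) and 7 without TIMP2-/- UUO 2 (1.68%). It was 1 (Acox2) without TIMP2-/- UUO 3 (0.121%), without TIMP3-/- UUO 1 (0.169%) or without TIMP3-/- UUO 2 (0.105%), and 21 (18.4%) without TIMP3-/- UUO 3. A fit of the compared arrays alone called none of the members (0.129% of all genes). Without the 3 arrays that stood apart 11 members were called (3.37%).

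Against WT UUO, which shares the TIMP3-/- UUO arrays with the comparison above, only Ppara was lower in TIMP3-/- UUO (0.153% of all genes were lower and 0.242% higher). It differed by -1.28 ± 0.24 (limma, adjusted p = 0.0375), with 220.5 to 437.8 in TIMP3-/- UUO and 524.7 to 1015 in WT UUO. Acox2 (-1.35 ± 0.29, adjusted p = 0.0574 by limma) and Acaa1b (adjusted p = 0.112) missed the threshold. The members' median was -0.42, beside -0.07 for all genes.

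This count moved with single arrays. Without WT UUO 2, 17 members were lower (7.24% of all genes), among them Esrra, Cpt2, Acads, Hadh, Acox2, Ehhadh, Acaa1b and Acot12. Without TIMP3-/- UUO 3 the count was 11 (7.77% of all genes), without the 3 arrays that stood apart 7 (2.24%), and without any 1 of the other 4 arrays compared 0. Each of those 4 omissions also ended the call of Ppara, with a highest adjusted p of 0.211.

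Between TIMP2-/- UUO and WT UUO no member passed (0.00807% of all genes were lower and 0.0161% higher). By unadjusted p under 0.05, 3 members were higher in TIMP2-/- UUO and none lower, against 3.32% of all genes. Apart from Fabp1, the widest difference was that of Acsm3, at 1.12 ± 0.42 (limma, adjusted p = 0.999). The median of the members was 0.16, beside 0.04 for all genes.

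**Figure D5:**
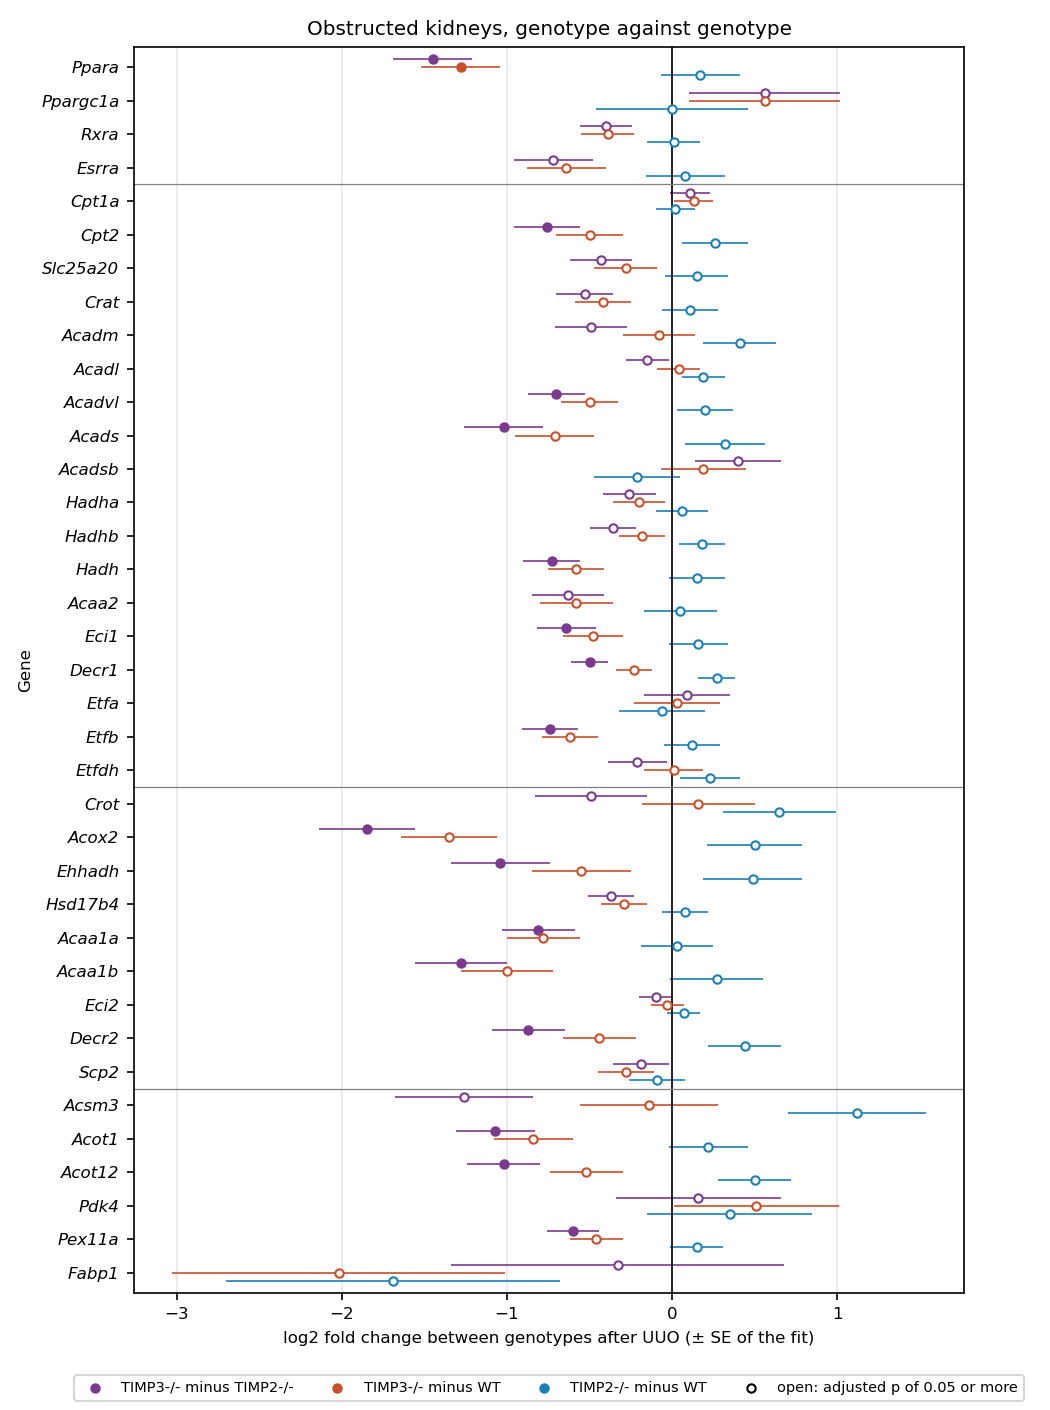
Points give the log2 difference between genotypes after UUO for each member, TIMP3-/- minus TIMP2-/-, TIMP3-/- minus WT and TIMP2-/- minus WT, with bars for the SE of the fit and open points where the adjusted p was 0.05 or more. TIMP3-/- values lie left of 0 for most members, and filled points are those of TIMP3-/- minus TIMP2-/- and of Ppara in TIMP3-/- minus WT.

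Whether the response to obstruction itself differed between genotypes was tested with the difference of differences, and no member passed. Of all genes 0.00807% were higher in TIMP3-/- minus TIMP2-/-, and none passed otherwise. TIMP3-/- minus TIMP2-/- had a median of -0.57 over the members (-0.07 over all genes), with 20 members lower at an unadjusted p under 0.05 (10.7% of all genes either way). For TIMP3-/- minus WT the median was -0.50 (-0.18 over all genes), with 18 lower and 1 higher (26.7% of all genes). For TIMP2-/- minus WT it was 0.17 (-0.08 over all genes), with 7 higher (9.56%).

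Among the members, the smallest adjusted p in TIMP3-/- minus TIMP2-/- was that of Acox2 (-1.76 ± 0.41, limma, 0.207). Acox2 also had the smallest in TIMP3-/- minus WT (-1.44 ± 0.41, 0.163), and Crot had it in TIMP2-/- minus WT (1.75 ± 0.48, 0.518). Without TIMP3-/- UUO 3 there were 4 members lower in TIMP3-/- minus TIMP2-/- (Ppara, Eci1, Acox2 and Pex11a, with 1.27% of all genes) and 4 in TIMP3-/- minus WT (Ppara, Eci1, Etfb and Acox2, with 4.68%). For no member was the response shown to differ between genotypes with all arrays in the fit.

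After sham no member passed between genotypes. Of all genes, 0.0242% were lower and 0.0161% higher in TIMP3-/- against TIMP2-/-, 0.00807% lower and 0.00807% higher in TIMP3-/- against WT, and 0.00807% higher and none lower in TIMP2-/- against WT. The members' medians were 0.04, 0.04 and -0.05 in these comparisons, beside -0.03, 0.11 and 0.14 for all genes. At an unadjusted p under 0.05 there were 1, 3 and 10 members in these comparisons (3.33%, 10.4% and 27.8% of all genes). Cpt1a stood first in those with TIMP3-/- sham, whose 6181 to 6895 lay above 4239 to 4504 in TIMP2-/- sham and 4675 to 5312 in WT sham. It differed by 0.59 ± 0.12 from TIMP2-/- and by 0.37 ± 0.12 from WT (limma, adjusted p = 0.187 and 0.476), while its other 2 probe sets gave 0.17 and 0.09 against TIMP2-/-. Etfa stood first in TIMP2-/- sham against WT sham, at -1.06 ± 0.26 (limma, adjusted p = 0.131).

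Single arrays were the highest of their operation for some members and the lowest for others, as they were over all genes. WT sham 3 was the highest of the 9 sham arrays for 10 members, Ppargc1a, Acadm, Acadl, Acadsb, Etfa, Etfdh, Crot, Ehhadh, Scp2 and Acsm3, and the lowest for 15 others, among them Esrra, Cpt2, Acads, Acaa2 and Acaa1b. Over all genes it was the highest for 16.5% and the lowest for 40%. TIMP2-/- sham 3 was the lowest for 15 members, which included all of those 10, and the highest for 11, against 17.6% and 32.5% of all genes. Among obstructed arrays TIMP3-/- UUO 2 was the highest for Ppargc1a, Acadsb, Etfa and Pdk4 and the lowest for 14 members, against 17.5% and 42.2% of all genes. Of the 37 members, the 15 lowest on WT sham 3, the 11 highest on TIMP2-/- sham 3 and these 14 are near the shares of all genes.

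Other genes of lipid use were read from 9 lists, grouped by role and chosen with earlier results of these data known. Of their 112 genes, 90 were measured and were no members. The shares of all genes that fell in TIMP3-/-, TIMP2-/- and WT were 38.8%, 22.0% and 16.2%, and 25.7%, 15.9% and 16.8% rose. In TIMP3-/- 59 fell and 11 rose, in TIMP2-/- 47 fell and 5 rose, and in WT 51 fell and 11 rose, with medians of -0.97, -0.52 and -0.66. Of 20 further oxidation enzymes, 18, 15 and 17 fell in TIMP3-/-, TIMP2-/- and WT and none rose. Acad9, an acyl-CoA dehydrogenase, fell, at -1.54 ± 0.14 in TIMP3-/-, -0.74 ± 0.14 in TIMP2-/- and -1.19 ± 0.14 in WT (limma, adjusted p = 1.03e-06, 0.00116 and 1.34e-05). Ivd, the isovaleryl-CoA dehydrogenase of leucine breakdown, fell, at -2.53 ± 0.27 in TIMP3-/-, -1.48 ± 0.27 in TIMP2-/- and -1.55 ± 0.27 in WT (adjusted p = 3.38e-06, 0.000831 and 0.000418, limma).

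Fatty acid uptake genes went both ways, Fabp4, a lipid carrier of adipocytes and macrophages, rising in each genotype, at 3.13 ± 0.61 in TIMP3-/-, 1.86 ± 0.61 in TIMP2-/- and 1.86 ± 0.61 in WT (limma, adjusted p = 0.000536, 0.0273 and 0.0291), and Fabp3, a carrier of muscle and other oxidative tissues, reading -2.14 ± 0.29 in TIMP3-/-, -0.76 ± 0.29 in TIMP2-/- and -0.83 ± 0.29 in WT (2.47e-05, 0.0482 and 0.0375).

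Genes of carnitine supply fell as well, beside 38.8%, 22.0% and 16.2% of all genes in TIMP3-/-, TIMP2-/- and WT. Slc22a5, the carnitine carrier, fell, at -1.91 ± 0.22 in TIMP3-/-, -0.97 ± 0.22 in TIMP2-/- and -1.23 ± 0.22 in WT (limma, adjusted p = 6.98e-06, 0.00416 and 0.000592), and 3 of its 4 list members fell in each genotype. Of 11 other acyl-CoA synthetases and thioesterases, Acsm1 fell, at -3.51 ± 0.28 in TIMP3-/-, -1.68 ± 0.28 in TIMP2-/- and -1.86 ± 0.28 in WT (limma, adjusted p = 4.13e-07, 0.000429 and 0.000124), while Acsl5 rose, at 0.68 ± 0.13 in TIMP3-/-, 0.69 ± 0.13 in TIMP2-/- and 0.48 ± 0.13 in WT (0.000424, 0.00107 and 0.00934). The ketone body genes Oxct1 and Bdh1 fell in every genotype, Bdh1 at -2.56 ± 0.32 in TIMP3-/-, -1.31 ± 0.32 in TIMP2-/- and -1.43 ± 0.32 in WT (limma, adjusted p = 1.29e-05, 0.00627 and 0.00309).

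Not every PPARα target fell. Of 4 measured Cyp4 genes of omega-oxidation, 3 fell in each genotype, with Cyp4a14 the exception. Values of the genes in this paragraph without WT UUO 2, the array with the high hepatocyte markers, were not examined. Cyp4a14, a fatty acid hydroxylase and a strongly PPARα-induced gene in liver, had 0.39 ± 0.39 in TIMP3-/-, 1.43 ± 0.39 in TIMP2-/- and 1.24 ± 0.39 in WT (limma, adjusted p = 0.388, 0.011 and 0.0229), so it rose in TIMP2-/- and WT. Its relative Cyp4a12a fell, at -2.55 ± 0.37 in TIMP3-/-, -1.63 ± 0.37 in TIMP2-/- and -1.33 ± 0.37 in WT (limma, adjusted p = 5.21e-05, 0.00439 and 0.0129). Angptl4, a secreted lipase inhibitor, had 0.20 ± 0.18 in TIMP3-/-, 0.93 ± 0.18 in TIMP2-/- and 1.00 ± 0.18 in WT (0.343, 0.00167 and 0.000748), and Plin2, a lipid droplet coat protein, rose, at 0.68 ± 0.16 in TIMP3-/-, 0.66 ± 0.16 in TIMP2-/- and 0.76 ± 0.16 in WT (0.00184, 0.00534 and 0.00183), both by limma. Of 13 genes of lipid synthesis and storage, 3 rose and 5 fell in TIMP3-/-, 2 rose and 3 fell in TIMP2-/-, and 5 rose and 3 fell in WT. The shares of all genes that rose were 25.7% in TIMP3-/-, 15.9% in TIMP2-/- and 16.8% in WT, and those that fell were 38.8%, 22.0% and 16.2%.

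Among 16 other regulators, 8, 7 and 7 fell and 4, 0 and 2 rose in TIMP3-/-, TIMP2-/- and WT. Of all genes 38.8%, 22.0% and 16.2% fell and 25.7%, 15.9% and 16.8% rose. The rises in TIMP3-/- and WT were near those shares. Genes named from the list were taken by adjusted p. Klf15, a regulator of amino acid and lipid use, fell, at -3.03 ± 0.33 in TIMP3-/-, -1.73 ± 0.33 in TIMP2-/- and -1.61 ± 0.33 in WT (limma, adjusted p = 4.31e-06, 0.00129 and 0.00159). Sirt3, a mitochondrial deacetylase, fell, at -2.34 ± 0.28 in TIMP3-/-, -1.33 ± 0.28 in TIMP2-/- and -1.22 ± 0.28 in WT (8.16e-06, 0.00242 and 0.00342). Ppargc1b, the close relative of Ppargc1a, fell, at -1.34 ± 0.19 in TIMP3-/-, -1.01 ± 0.19 in TIMP2-/- and -1.25 ± 0.19 in WT (4.41e-05, 0.0014 and 0.000165). Of 11 genes of peroxisome biogenesis, catalase included, 9 fell in TIMP3-/-, 7 in TIMP2-/- and 4 in WT, and none rose.

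Between the obstructed knockouts, 29 of these 90 genes were lower in TIMP3-/- UUO than in TIMP2-/- UUO and none higher, with a median of -0.44. Of all genes 6.09% were lower and 1.98% higher, with a median of -0.11. As for the members, such calls rest on few arrays. The share of all genes lower was 0.121% without TIMP2-/- UUO 3, 0.169% without TIMP3-/- UUO 1 and 0.105% without TIMP3-/- UUO 2. Of the 20 further oxidation enzymes 13 were lower, for example Acad9 (-0.73 ± 0.14) and Amacr (-1.60 ± 0.34), the racemase of branched acyl-CoAs (limma, adjusted p = 0.0142 and 0.0201). The 3 other regulators that were lower there were Klf15 (-1.40 ± 0.33), Sirt3 (-1.09 ± 0.28) and Hnf4a, a factor of proximal tubule identity.

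Markers of the nephron moved with the members. All 19 measured proximal tubule markers that are no members fell in TIMP3-/- (median -2.33) and in WT (-1.59), and 18 fell in TIMP2-/- (-1.07). Between TIMP3-/- UUO and TIMP2-/- UUO 14 of the 19 were lower (median -1.13). Of all genes 38.8% fell in TIMP3-/-, 22.0% in TIMP2-/- and 16.2% in WT, and 6.09% were lower between these obstructed knockouts. Their summed intensity was 69705 to 88349 in TIMP3-/- UUO, 130026 to 178630 in TIMP2-/- UUO and 75636 to 170926 in WT UUO, and 266142 to 286157 on the sham arrays. Of 7 markers of the thick limb and distal tubule, 6 fell in TIMP3-/- (median -2.14), 4 in TIMP2-/- (-1.62) and 6 in WT (-2.27). Of the same 7, 1 was lower in TIMP3-/- UUO than in TIMP2-/- UUO, with a median over the 7 of -0.24. They summed to 16549 to 29739 in TIMP3-/- UUO, 29154 to 32065 in TIMP2-/- UUO and 20065 to 39106 in WT UUO, and to 56037 to 80099 after sham. The part of these changes in the members' values was not tested.

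Markers of other cell types also differed between UUO and sham. Macrophage markers, all 11 of which rose in each genotype, summed to 63307 to 89026 in TIMP3-/- UUO, 49427 to 50994 in TIMP2-/- UUO and 41301 to 74735 in WT UUO, and to 6202 to 11251 after sham. Fibroblast markers, all 8 of which rose, summed to 78763 to 154148 in TIMP3-/- UUO, 56193 to 67054 in TIMP2-/- UUO and 60682 to 123103 in WT UUO, and to 7367 to 11962 after sham. Adipocyte markers (7 measured, of which 4 rose in TIMP3-/-, 1 in TIMP2-/- and 4 in WT) summed to 2521 to 18769 in TIMP3-/- UUO, 5461 to 6201 in TIMP2-/- UUO and 3141 to 15755 in WT UUO, and to 944 to 2412 after sham. Of all genes 25.7% rose in TIMP3-/-, 15.9% in TIMP2-/- and 16.8% in WT, so the 1 adipocyte marker in TIMP2-/- was near that share. Between TIMP3-/- UUO and TIMP2-/- UUO, 1 of the 11 macrophage and 3 of the 8 fibroblast markers were higher (1.98% of all genes). No macrophage or fibroblast marker passed between TIMP3-/- UUO and WT UUO. The part of these cells in the members' values was not tested.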

How the data were processed

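Kidney RNA was hybridised to 18 Affymetrix Mouse430A_2 arrays, 3 in each of 6 groups. The deposited values are linear intensities per probe set, made by the authors with RMA per the submitters' processing notes. Its version and the step to a linear scale are not stated in the labels or files. RMA equalises the arrays' distributions, so a shift of all transcripts together cannot be seen. The deposited intensities were converted here to log2 with no pseudocount. Of 22690 probe sets, 64 controls were left out, and 20380 had 1 symbol, 691 several and 1555 none. The brightest probe set stood for each of 12393 genes, of which 12369 matched RefSeq (GRCm38.p6).

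A model of 6 group means was fitted to all genes with limma 3.58.1 (R 4.3.3), with Benjamini-Hochberg adjustment within each of 12 comparisons and a threshold of 0.05, and was tested on simulated data. The residual degrees of freedom were 12, the prior ones 3.35 and the median residual SD 0.222. With 3 arrays a group, exact 2-sided permutation allows no p under 0.1, and the number of arrays limits the precision. Every member is named. Values on each array are given for the regulators, 7 further members and the 3 lowest adjusted p in each direction and comparison of 2 groups, and at most 4 genes are named per other list, by adjusted p. Alternatives changed the arrays fitted, a replicate block, the filter on dim genes, the normalization, the pseudocount, the probe set and the variance trend, or left out arrays. The members and lists were chosen with earlier results of these data known.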

Additional observations from a re-analysis of the deposited data

How the results depend on the processing

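In the UUO responses, leaving out each array in turn gave 30 to 31 members called in either direction in TIMP3-/-, 15 to 21 in TIMP2-/- and 20 to 32 in WT, where 29 of 30, 15 of 20 and 19 of 31 falls kept their call each time. The other alternatives gave 30 to 32, 20 to 23 and 22 to 31. In TIMP3-/- UUO against TIMP2-/- UUO the count of 16 was 0 with only the arrays compared and 1 to 21 with an array left out, and Acox2 alone kept its call in every such fit. In TIMP3-/- UUO against WT UUO the count of 1 was 0 with only the arrays compared, 7 without the 3 arrays that stand apart, and 0 to 17 with an array left out. The differences of responses, with 0 members called, gave 0 to 4 for TIMP3-/- minus WT and 0 to 4 for TIMP3-/- minus TIMP2-/- with an array left out. The cause of these changes was not tested, and fits that left out an array also had fewer arrays. Whether samples with the same replicate number deviated together differed between groups: 24 of 45 same-numbered pairs of arrays correlated above 0.1 (range -0.613 to 0.673), and all 3 numbers did so in 3 of 15 pairs of groups (TIMP2-/- UUO with TIMP2-/- sham, TIMP2-/- UUO with WT UUO, and TIMP2-/- sham with WT UUO). In 35 of 90 cases an array correlated best with its own number. With the replicate block the count in TIMP3-/- UUO against WT UUO was 2, and the block moved no other count of members by over 1.5 times. It ended the call of Acadl in WT (adjusted p = 0.0555) and added those of Pex11a in TIMP2-/- (0.0419), Acox2 in TIMP3-/- UUO against WT UUO (0.0287) and Esrra in TIMP3-/- UUO against TIMP2-/- UUO (0.0329), all by limma, and changed no other call of a member. No called member changed sign under any alternative run. For single members 7052 values kept their side of the threshold, 172 lost it and 66 gained it. The filter on a mean log2 of at least 6 removed Fabp1, and leaving out probe sets with suffixes left 35 members. Low intensity limits Fabp1, and 3 arrays per group limit every comparison.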
